A study of Mus musculus with 49 samples.

Results

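The proteasome genes of the mouse were read in single late 2-cell embryos treated to deplete TBP or FOXJ3, and in control embryos given IgG. Members were the protein-coding genes of the GRCm38 annotation whose symbol begins with Psm followed by a letter from a to g and a number, which gave 50 of the 54838 genes in the count tables. Of these, 19 are genes of the core particle, 17 of the regulatory particle and 13 of accessory proteins, and 1, Psmc3ip, carries the prefix but encodes a meiotic recombination factor and no proteasome subunit. Embryos were F1(C57BL/6JxCBA/H). Every embryo received an antibody as a zygote and, after 4 h, mRNA of mCherry-Trim21, the ubiquitin ligase that Trim-Away uses to degrade the protein the antibody binds. The antibody was against TBP (TBP LOF, 9 embryos) or was mouse IgG (its CONTROL, 10 embryos), or it was against FOXJ3 (FOXJ3 LOF, 17 embryos) or was rabbit IgG (its CONTROL, 13 embryos). All were collected 48 h after hCG, the FOXJ3 experiment in 2 library batches, and 47 of the 49 passed quality control: 9 and 9 in the TBP experiment, 16 and 13 in the FOXJ3 experiment. Trim-Away acts on protein, so transcript levels of Tbp or Foxj3 do not check the depletion, and all groups, CONTROL included, carried extra Trim21, a ligase that itself works through the proteasome.

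The proteasome is the barrel-shaped protease that degrades ubiquitin-tagged proteins. Its core particle stacks rings of alpha subunits (Psma genes), which form the gate, and beta subunits (Psmb genes), some of which cut the substrate. The regulatory particle caps the core with a base, whose ring of ATPases (Psmc genes) unfolds the substrate, and a lid (most Psmd genes), which removes ubiquitin. Dedicated chaperones put core and base together, and other activators and an inhibitor can take the place of the regulatory particle. In the early embryo, the proteasome is known for the clearance of maternally inherited proteins around activation of the embryonic genome.

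Because TBP is the TATA-binding protein, the promoters of the members were searched for short motifs. RefSeq promoters (GRCm38.p6) run from 250 bases before to 50 bases after the annotated start. They were found for 42 members in 45 entries, and Psma8, Psmb1, Psmb2, Psmb7, Psmc3, Psmd3, Psmd7 and Psmg2 are not among them. The TATA box TATAAA, searched on the gene's own strand with its first base 40 to 20 bases before the start, was found in 0 of the 45 entries and in 1.99% of all 32851 promoters. On both strands and over the whole window it was in 4 entries (Psmb4, Psmb8, Psmd1 and Psmd6) and in 13.6% of all promoters. The letters CCGGAAG, the core of sites for ETS factors, were in 16 of the 45 entries against 8.86% of all promoters. They were in 10 of the 15 entries of the regulatory particle, in 1 of the 16 of the core particle and in 4 of the 13 of accessory genes. The GC box GGGCGG was in 24 entries (35.7% of all promoters), the CCAAT box in 15 (37.4%), AAGATGGCG, a YY1 site, in 2 (1.40%), and TGACNNNGC, the core of the antioxidant response element bound by Nrf1 and Nrf2, in 6 (12.4%), each on either strand. A match describes these letters only.

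Promoters of 4 members are shown because they stand for the range of the results below: a catalytic core subunit (Psmb5), an ATPase (Psmc1) and the lid deubiquitinase (Psmd14), whose transcripts were lower in TBP LOF embryos, and an alternative activator (Psme4), whose transcripts were not. Capitals mark the matches to the motifs named above on either strand, each entry is written 5′ to 3′ on the strand of its gene, and distances are counted from the annotated start to the first base of a match.
Psmb5 (chr14:54617946-54618245, minus strand): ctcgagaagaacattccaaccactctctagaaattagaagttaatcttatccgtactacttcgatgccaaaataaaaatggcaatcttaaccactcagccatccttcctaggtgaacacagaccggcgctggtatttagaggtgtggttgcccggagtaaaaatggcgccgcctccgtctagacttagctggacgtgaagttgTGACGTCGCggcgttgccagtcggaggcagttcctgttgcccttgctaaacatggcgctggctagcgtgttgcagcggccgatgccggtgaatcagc
Psmc1 (chr12:100109952-100110251, plus strand): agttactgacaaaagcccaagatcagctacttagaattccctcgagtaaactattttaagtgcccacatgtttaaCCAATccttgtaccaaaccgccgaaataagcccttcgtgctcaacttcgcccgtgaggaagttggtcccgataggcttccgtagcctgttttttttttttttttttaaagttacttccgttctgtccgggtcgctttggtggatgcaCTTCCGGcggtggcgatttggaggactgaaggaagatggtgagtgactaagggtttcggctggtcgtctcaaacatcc
Psmd14 (chr2:61711444-61711743, plus strand): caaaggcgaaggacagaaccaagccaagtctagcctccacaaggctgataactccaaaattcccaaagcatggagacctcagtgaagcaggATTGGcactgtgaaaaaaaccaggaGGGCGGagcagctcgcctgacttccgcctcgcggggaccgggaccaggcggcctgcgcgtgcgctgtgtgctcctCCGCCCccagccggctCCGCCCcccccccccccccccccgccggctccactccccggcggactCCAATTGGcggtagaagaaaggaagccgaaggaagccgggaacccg
Psme4 (chr11:30771525-30771824, plus strand): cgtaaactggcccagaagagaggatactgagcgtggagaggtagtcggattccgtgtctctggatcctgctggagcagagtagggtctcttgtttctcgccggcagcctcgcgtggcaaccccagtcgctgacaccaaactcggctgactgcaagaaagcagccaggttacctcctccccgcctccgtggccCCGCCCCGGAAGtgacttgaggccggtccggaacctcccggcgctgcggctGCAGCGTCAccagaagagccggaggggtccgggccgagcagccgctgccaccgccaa
The Psmb5 match is TGACNNNGC, 47 bases before the start. In Psmc1, CCAAT lies 175 bases and CCGGAAG, on the other strand, 28 bases before the start. Psmd14 has 3 GC boxes and 3 CCAAT boxes, of which a pair, on opposite strands, overlap just after the start. In Psme4 a GC box on the other strand runs into CCGGAAG, which begins 53 bases before the start, and TGACNNNGC lies on the other strand 7 bases before it.

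Embryos that passed held between 1103569 and 5434808 counted reads. Every library is a whole embryo, so that fewer cells and less RNA per cell cannot be told apart. The share of ERCC spike-in reads was higher with TBP LOF (median 4.38%) than in its CONTROL (2.82%), and mitochondrial reads made up a median of 6.63% against 5.76%. In the FOXJ3 experiment the median ERCC share was lower with LOF (2.78%) than in CONTROL (3.75%). The level of mCherry-Trim21 was not alike between groups: its median was 1390 CPM (232 to 2544) with TBP LOF and 770 CPM (304 to 1490) in its CONTROL, and 351 CPM (225 to 1882) with FOXJ3 LOF and 839 CPM (246 to 3162) in its CONTROL. All groups overlapped, and with this level as a covariate 34 members were called with TBP LOF, against 36 without it. All 8 genes of the 2-cell programme had at least 1 read in both groups of the TBP experiment. So did all 8 oocyte genes, which mark maternal transcripts, and all 7 genes of blastocyst lineages. A read in a group therefore does not check the stage. The paper placed TBP LOF embryos towards earlier stages than CONTROL by principal components, and reported delayed development. Of 8 cumulus cell genes, 5 were at 0 in all TBP LOF embryos and 4 in their CONTROL, and the summed level of the 8 reached at most 6.21 and 3.62 CPM (reads scaled to a common total of all genes and TE families). In the FOXJ3 experiment, CONTROL embryos 2 and 3 of batch 1 stood apart, with 19.6% and 24.5% of their proteasome reads on accessory genes where the median of that group was 10.1%, and LOF embryo 7 of batch 2 had 17.5%, where its group's median was 9.82%.

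Levels in CONTROL embryos set the members far apart. Counts are of reads at the 5′ end of transcripts, so that a level per length can understate long transcripts, and both scales are given. In the TBP CONTROL, the highest medians were those of Psma3 at 208 CPM, Psmb1 at 181 and Psmd11 at 162. Per kb of merged exons, Psmb5, the chymotrypsin-like catalytic subunit, led with 123 CPM per kb, followed by Psmb2 with 116 and Psma6 with 98.4. Of the 10 members highest on the first scale, 7 were also among the 10 highest per kb. Subunits that build alternative cores were near the floor: Psma8, the meiotic alpha subunit, had 43 reads over all embryos, the immunoproteasome subunits Psmb8 and Psmb9 had 15 and 109, and thymic Psmb11 had 157, against 12584 of Psmb5. Psmb10, the other immunoproteasome subunit, had 1827 reads.

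Summed over the 19 core genes, CPM had a median of 1473 in TBP CONTROL embryos (lowest 1180, highest 2127) and of 1774 in FOXJ3 CONTROL embryos (565 to 2978). With FOXJ3 LOF they were 1723 (1009 to 2519), and with TBP LOF 570 (309 to 960), where all 9 embryos lay below the lowest of their own CONTROL. The regulatory particle had medians of 539 (355 to 1038) with TBP LOF and 1240 (902 to 1478) in its CONTROL, which overlapped. FOXJ3 LOF had 1363 (893 to 1857) and its CONTROL 1537 (462 to 2772). The sums of accessory genes, as CPM, overlapped in both experiments: their medians were 320 (233 to 460) with TBP LOF and 291 (220 to 329) in its CONTROL, and 317 and 348 in the FOXJ3 experiment. These sums are a description without a test, and the TBP and FOXJ3 experiments differ in library set and IgG.

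With TBP LOF, transcripts of the standard proteasome were lower almost throughout. All 14 constitutive core genes, all 6 ATPases and 7 of 8 lid genes fell on the scale set by spike-in reads (edgeR, adjusted p under 0.05 over all features). Among accessory genes, 0 of 3 base chaperones, 3 of 4 core chaperones, 2 of 5 activators and not the inhibitor fell. The difference between these classes was not tested. Over all, 49 members were tested, 36 were lower and 0 higher, where 29.7% of all 19356 genes and transposable element (TE) families tested were lower and 1.34% higher. Counts over all members include Psmc3ip, which was lower but is no proteasome subunit. The median log2 fold change was -1.80 over core, -1.53 over regulatory and -0.64 over accessory members, and -0.72 over all features. Well read genes were lower more often in general: of 32 members that are read well (a mean of at least 50 normalised counts), 27 were lower, beside 60.6% of the 3325 protein-coding genes read as well. The median log2 fold change was -1.80 over these members and -1.09 over these protein-coding genes. All 9 LOF embryos lay below all 9 CONTROL embryos in 14 members, and in 6.69% of all features. Among well read genes this held for 13 of the 32 members and for 24.8% of protein-coding genes. Leaving out any 1 embryo gave between 34 and 39 calls.

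**Figure D1:**
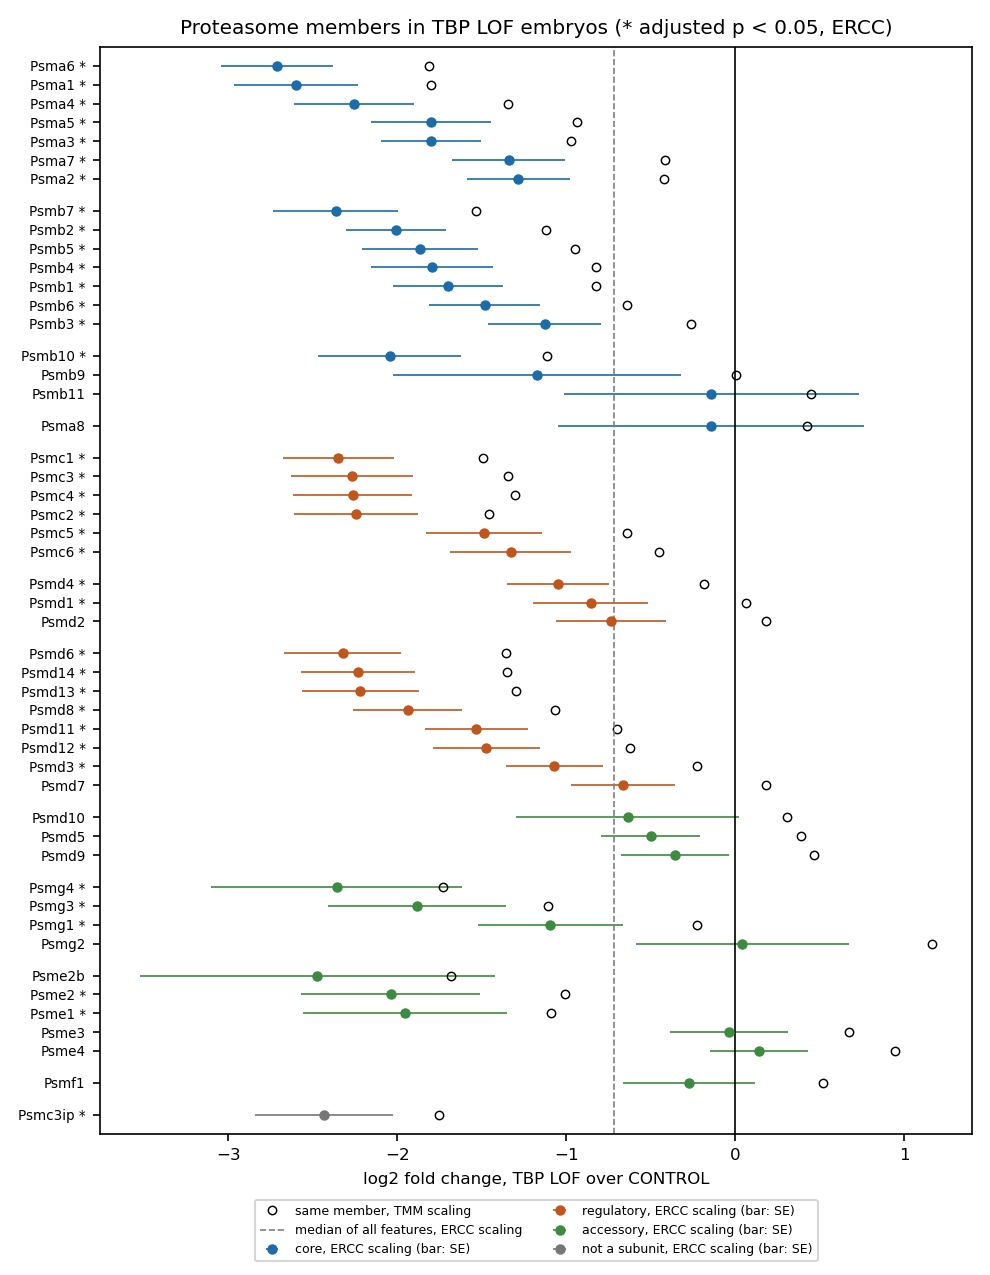
Log2 fold change of TBP LOF over CONTROL (x axis) for the 49 members tested, grouped by role and ordered by size within each group. Filled points with bars (SE) are scaled by ERCC reads, open points by TMM, and the dashed line is the median of all features at -0.72; core members except Psma8 and Psmb11, and regulatory members except Psmd7, lie left of the line, and accessory members spread on both sides of it.

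Of the alpha ring, all 7 genes fell, with log2 fold changes between -2.71 (Psma6) and -1.28 (Psma2). Psma6 (chr12:55384222-55418454) had normalised counts of 8.79, 37.8 and 86.9 in the lowest, median and highest LOF embryo and of 196, 277 and 399 in CONTROL. No LOF embryo reached the lowest CONTROL embryo, and the fold change was -2.71 ± 0.33 (log2, SE, adjusted p = 7.5e-09). Psma1 (chr7:114264606-114276118), another gene of the ring, had 8.79, 28.2 and 126 in LOF and 121, 217 and 439 in CONTROL. There, LOF embryo 6 lay within the CONTROL range, and the fold change was -2.60 ± 0.37 (adjusted p = 1.57e-07). The other 5 genes of the ring were Psma4 (-2.26), Psma5 and Psma3 (-1.80 each), Psma7 (-1.34) and Psma2 (-1.28). Estimates for the ring thus spanned more than 1 on the log2 scale, with SE between 0.30 and 0.37. Differences between its genes were not tested. Exons of 15 members, Psma4 and Psma5 among them, overlap another gene, and the sources used here do not say how such reads were divided.

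The 7 constitutive beta genes fell as well, with log2 fold changes between -2.37 and -1.13. Psmb2 (chr4:126677630-126709714), a structural subunit, had normalised counts of 34.5, 71.9 and 123 in LOF and 219, 292 and 496 in CONTROL, without overlap, and a fold change of -2.01 ± 0.30 (adjusted p = 3.43e-07). Psmb7 (chr2:38588036-38644087), the trypsin-like catalytic subunit, had 1.46, 28.8 and 107 in LOF and 144, 187 and 324 in CONTROL, again without overlap, and -2.37 ± 0.37 (adjusted p = 1.13e-06). Its exons overlap those of Nek6. The other catalytic subunits, Psmb5 and caspase-like Psmb6, changed by -1.86 and -1.48, and the smallest change of the ring was that of Psmb3 (-1.13, adjusted p = 0.00647), where 7 LOF embryos were under the median of the CONTROL.

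Among inducible subunits, Psmb10 (chr8:105935735-105938444) fell with the constitutive genes: normalised counts were 2.90, 9.52 and 32.8 in LOF and 10.8, 45.1 and 108 in CONTROL, which overlapped, with a fold change of -2.04 ± 0.42 (adjusted p = 0.000114). Psmb9 had medians of 0.82 and 1.66 and a fold change of -1.17 ± 0.85 (adjusted p = 0.325). Thymic Psmb11 had medians of 0 and 1.34 (-0.14 ± 0.87, adjusted p = 0.928), and Psma8 of 0 in both groups (-0.14 ± 0.91, adjusted p = 0.932). For these low genes a change was not detectable at this depth. Psmb8 did not pass the filter of 1 read in 25% of embryos. It had 11 reads in 3 LOF embryos and 0 in CONTROL, where a count of 0 allows up to 3 reads over the group, or 0.159 CPM. Of the 11 reads, 9 were in LOF embryo 9, and without the filter Psmb8 was the 1 member called higher (adjusted p = 0.0197).

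In the base of the regulatory particle, all 6 ATPases and 2 of 3 Psmd members fell. Of the ATPases, 4 (Psmc1, Psmc2, Psmc3 and Psmc4) fell with log2 fold changes between -2.35 and -2.25 and without overlap between the groups, and Psmc5 and Psmc6 with -1.49 and -1.33. Psmc1 (chr12:100110154-100123405) had normalised counts of 9.52, 44.3 and 57.9 in LOF and 111, 194 and 232 in CONTROL, with a fold change of -2.35 ± 0.33 (adjusted p = 1.2e-07). Psmc4 (chr7:28041707-28050101) had 7.37, 14.5 and 24.1 against 33.9, 79.8 and 111, with -2.26 ± 0.35 (adjusted p = 8.85e-07). The other base members had a median of -0.86, against -2.25 of the ATPases, a difference that was not tested. Psmd4 (chr3:95032694-95042614), a ubiquitin receptor, had 44.7, 137 and 210 in LOF and 145, 273 and 407 in CONTROL, overlapping, with -1.05 ± 0.30 (adjusted p = 0.00465). The scaffold Psmd1 (chr1:86064387-86139151) had 8.60, 27.8 and 37.8 against 29.8, 45.1 and 64.2, and -0.86 ± 0.34 (adjusted p = 0.0465), a call that was lost without any of 12 of the 18 embryos. Its partner Psmd2 (chr16:20651652-20663414) had 18.6, 30.8 and 63.9 against 36.6, 54.2 and 89.3, and -0.73 ± 0.32 (adjusted p = 0.0782). It passed when LOF embryo 10 was left out, but no other embryo, and also by DESeq2 with spike-in scaling (adjusted p = 0.0342) and with the filter of edgeR's filterByExpr (adjusted p = 0.0421).

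In the lid, 7 of 8 genes fell. Psmd6 (chr14:14112174-14120984) had normalised counts of 5.86, 23.4 and 57.4 in LOF and 74.2, 122 and 236 in CONTROL, without overlap, and a fold change of -2.32 ± 0.35 (adjusted p = 4.77e-07). Psmd14 (chr2:61711694-61800376), which cuts ubiquitin chains from the substrate, had 9.52, 36.3 and 87.7 against 126, 200.4 and 329, also without overlap, with -2.23 ± 0.34 (adjusted p = 5.25e-07). Psmd7 (chr8:107580381-107588464), the inactive partner with which Psmd14 forms a dimer, was the exception: it had 54.9, 181 and 357 against 204, 274 and 455, with -0.66 ± 0.31 (adjusted p = 0.0943), and passed only when LOF embryo 10 was left out.  Psmd13, Psmd8, Psmd11, Psmd12 and Psmd3 changed by -2.22, -1.94, -1.53, -1.47 and -1.07.

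**Figure D2:**
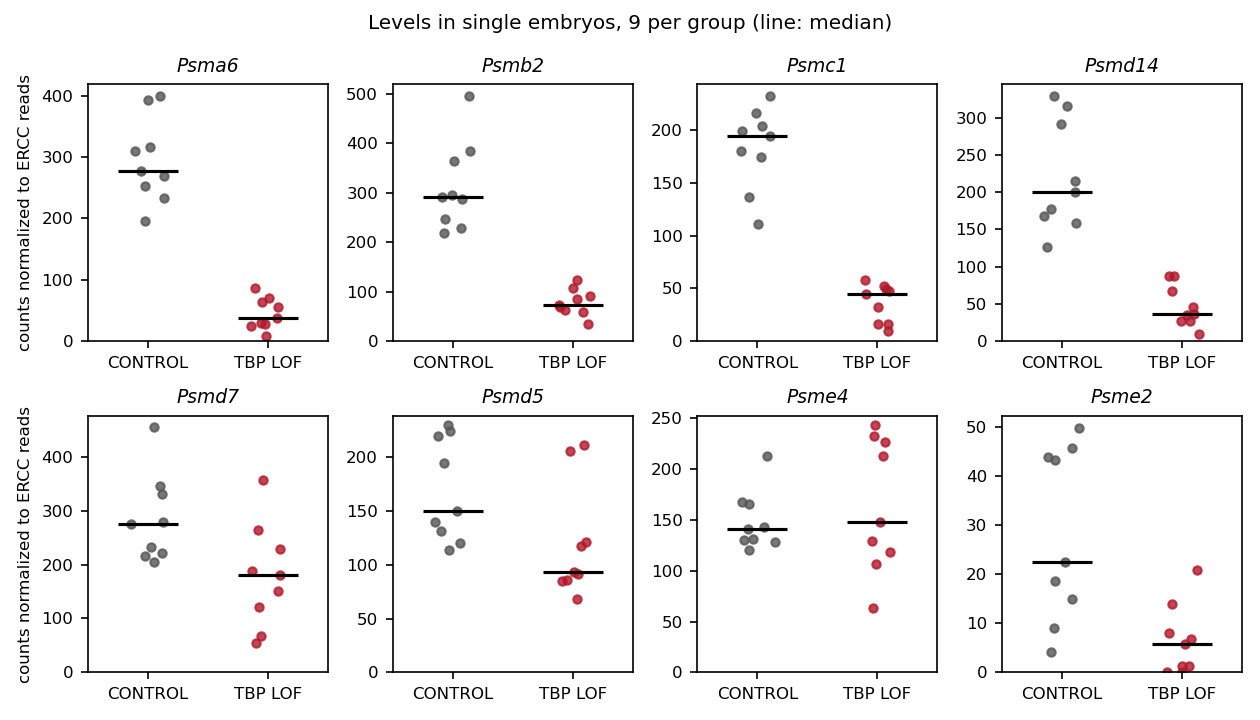
Counts normalised to ERCC reads (y axis, from 0) of 8 members in the 9 CONTROL and 9 TBP LOF embryos, one point per embryo, with the median as a line. Psma6, Psmb2, Psmc1 and Psmd14 show no overlap between the groups, Psmd7, Psmd5 and Psme2 overlap, and the medians of Psme4 are 141 in CONTROL and 148 in LOF.

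Accessory genes did not move as a block. Of the base chaperones, which guide assembly of the ATPase ring, Psmd5 (chr2:34849734-34874968) had normalised counts of 68.2, 93.4 and 211 in LOF and 114, 150 and 230 in CONTROL, with -0.50 ± 0.29 (adjusted p = 0.204). Psmd9 (chr5:123169413-123250131) had 31.3, 49.2 and 121 against 42.1, 72.9 and 122, with -0.36 ± 0.32 (adjusted p = 0.445), and Psmd10 had -0.64 ± 0.66 (adjusted p = 0.519). The groups overlapped in all 3. Core chaperones were read at low counts. Psmg3 (chr5:139823592-139826885) had 0, 7.24 and 31.1 in LOF and 8.68, 37.0 and 56.4 in CONTROL (-1.88 ± 0.53, adjusted p = 0.00386), Psmg4 (chr13:34162964-34178173) had 0, 1.15 and 4.76 against 1.34, 7.22 and 15.2 (-2.36 ± 0.74, adjusted p = 0.0107). Psmg1 changed by -1.09 (adjusted p = 0.0431), a call lost without any of 11 of the 18 embryos, and its partner Psmg2 had medians of 4.36 and 5.06 (0.04 ± 0.63, adjusted p = 0.973).

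Of the 5 activators, 2 fell on the spike-in scale. Psme1 (chr14:55578123-55581529) and Psme2 (chr14:55587441-55591113), which form the interferon-inducible PA28 ring, were these. Psme2 had normalised counts of 0, 5.81 and 20.8 in LOF and 4.06, 22.6 and 49.7 in CONTROL (-2.04 ± 0.53, adjusted p = 0.00191), and Psme1 had 0, 2.90 and 7.94 against 0, 9.65 and 33.6 (-1.95 ± 0.60, adjusted p = 0.00913). By TMM, neither passed (adjusted p = 0.165 and 0.17). Psme2b, a copy of Psme2 whose exon overlaps another gene, had 74 reads over all embryos and did not pass (-2.47 ± 1.05, adjusted p = 0.066), and reads of the pair could be divided between them. Psme3, the nuclear activator, had medians of 56.7 and 69.1 (-0.04 ± 0.35, adjusted p = 0.956). Psme4 (chr11:30771726-30880361), which encodes PA200, the activator of proteasomes that degrade acetylated histones, had 63.7, 148 and 243 in LOF and 121, 141 and 213 in CONTROL, and 0.14 ± 0.29 (adjusted p = 0.771). The inhibitor Psmf1 (chr2:151715812-151744186) had 4.35, 20.5 and 42.5 against 13.5, 21.4 and 50.5, and -0.28 ± 0.39 (adjusted p = 0.656).

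The members changed unequally, which can be read without any scaling in the make-up of the proteasome reads of an embryo. Core genes held between 46.3% and 54.5% (median 49.5%) of these reads in TBP CONTROL embryos and between 27.3% and 45.0% (median 40.1%) in LOF embryos, so the groups did not overlap. Regulatory genes held 41.1% and 40.2%. Accessory genes held between 8.0% and 10.2% in CONTROL (median 9.64%) and between 13.1% and 34.1% in LOF (median 17.4%), again without overlap, with Psme4 alone at a median of 2.23% and 6.68%. In 4 LOF embryos (1, 2, 8 and 9) the accessory share was over 24%, and these were the 4 with the fewest proteasome reads. Those reads are not scaled to depth and are the divisor of the share, so the share and the read count are not independent. In the FOXJ3 experiment the accessory medians were 9.82% with LOF and 10.1% in CONTROL, and the core medians 49.6% and 48.2%. Shares of 1 embryo sum to a fixed total, so a lower core share and a higher accessory share are one measurement.

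**Figure D3:**
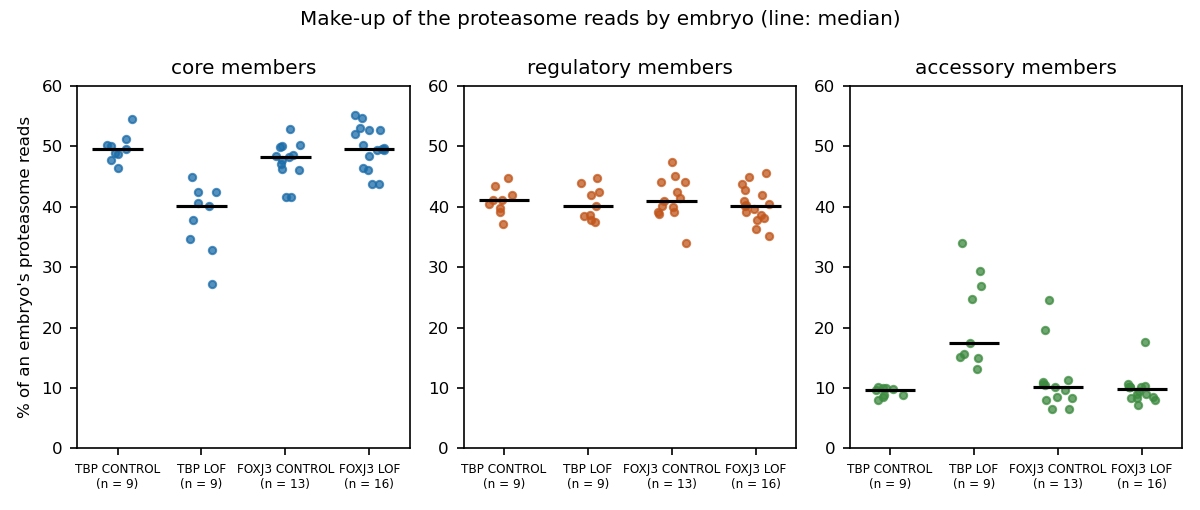
Share of an embryo's proteasome reads (y axis, %) on core, regulatory and accessory genes, one point per embryo of the 4 groups, with the median as a line. TBP LOF embryos lie at 27.3% to 45.0% for core genes and at 13.1% to 34.1% for accessory genes, outside the range of their CONTROL, and 2 FOXJ3 CONTROL embryos (19.6% and 24.5%) and 1 FOXJ3 LOF embryo (17.5%) lie above the rest of their groups for accessory genes.

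Scaling decided how many members were called. With TMM, which sets the bulk of features to no change (median log2 fold change of all features 0.11, against -0.72 with spike-ins), 20 members were lower and 1 was higher, where 12.7% of all features were lower and 12.8% higher. Each of these 20 had also been lower by spike-ins. Among well read members, 18 of 32 were lower and 1 higher, beside 33.4% and 22.0% of well read protein-coding genes, whose median log2 fold change was -0.26. The median of core members was then -0.88, of regulatory members -0.70 and of accessory members 0.31, so that the accessory median changed sign. The higher gene was Psme4, with 0.95 (adjusted p = 0.000608), and without overlap between the groups. Lost calls included Psmb3, Psmb4, Psmb6, Psmc5, Psmc6, Psmd4 and all accessory calls, while Psma6 (-1.81, adjusted p = 2.42e-05), Psma1 (-1.80), Psmb7 (-1.54), Psmc1 (-1.49), Psmd6 (-1.35) and Psmd14 (-1.35) passed on both scales. Under all alternatives tried, 19 members were lower in each: 5 of the alpha ring, 4 of the beta ring, 4 ATPases, 5 lid genes and Psmc3ip, which is no proteasome subunit. The share of all features lower under every alternative was not counted, so whether 19 is many is not known.

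The oocyte genes were set beside these members. Of the 8, 1 was lower (Zp3, -1.83) and 7 did not pass on the spike-in scale, with a median log2 fold change of 0.09, and by TMM 6 were higher. Their summed level was 569 to 1020 CPM in LOF embryos and 325 to 548 in CONTROL. On the spike-in scale the sums overlapped, with 559 to 2320 (median 1015) in LOF and 702 to 1364 (median 924) in CONTROL. The part of maternal transcripts in the level of Psme4 was not tested.

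Psmb1 (chr17:15475021-15499751, minus strand) is the neighbour of Tbp itself (chr17:15499888-15528379, plus strand): the genes are transcribed away from each other, with 136 bases between their annotated ends. Psmb1 had normalised counts of 32.2, 119 and 274 in LOF and 263, 368 and 606 in CONTROL (-1.70 ± 0.33, adjusted p = 3.34e-05), and 1 LOF embryo reached the CONTROL range. Tbp had 6.59, 83.3 and 151 against 196, 280 and 672 (-2.14 ± 0.37, adjusted p = 5.26e-06). With FOXJ3 LOF, Psmb1 changed by 0.12 ± 0.20 and Tbp by 0.11 ± 0.17, and neither passed. Psmc3ip (chr11:101091823-101095436), the meiotic recombination gene that only shares the prefix, had 2.20, 34.9 and 88.9 with TBP LOF and 78.6, 158 and 349 in CONTROL (-2.43 ± 0.41, adjusted p = 3.54e-06), where the ATPases had a median of -2.25.

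Other genes of the pathway were also lower in part. Of 30 tested, 15 were lower and 0 higher with TBP LOF, with a median of -0.90, beside 29.7% of all features lower and 60.6% of well read protein-coding genes. Subunits and factors outside the Psm symbols were lower in 3 of 4: Adrm1, a ubiquitin receptor of the base (-1.84 ± 0.34, adjusted p = 1.67e-05), Sem1, the smallest lid subunit (-1.62 ± 0.31, adjusted p = 2.89e-05), and Pomp, the maturation factor of the core (-1.67 ± 0.32). Of 11 genes for deubiquitinases, shuttles and other proteins that bind the proteasome, 6 were lower. Among them was Txnl1 (-1.91 ± 0.33, adjusted p = 5.87e-06), which is of the last kind. Of 5 genes of the p97 pathway, which extracts proteins for degradation, 2 were lower, Vcp (-1.66 ± 0.34, adjusted p = 0.000102) and Faf1 (-1.31 ± 0.35, adjusted p = 0.00245). Of 6 genes for ubiquitin and its E1 enzymes, 3 were lower, among them Rps27a (-1.82 ± 0.30, adjusted p = 3.59e-06), which encodes ubiquitin fused to a ribosomal protein, and the E1 enzyme Uba6 (-1.85 ± 0.49). The polyubiquitin gene Ubb did not pass (-0.30), nor did the main E1 Uba1 (-0.31). Of 4 genes through which proteasome shortage raises transcription of its subunits, Nfe2l1, which encodes Nrf1, was lower (-0.92 ± 0.31, adjusted p = 0.0166), and the Nrf1 protease Ddi2 had -0.73 ± 0.33 (adjusted p = 0.0888). By TMM, 8 of the 30 were lower and 3 higher (Ubb, Ecpas and Ngly1), where 12.7% and 12.8% of all features were. Of the genes named here as lower, Nfe2l1 (-0.074, adjusted p = 0.839), Faf1 (-0.42, adjusted p = 0.235), Pomp (-0.70, adjusted p = 0.0625) and Uba6 (-1.08, adjusted p = 0.0659) did not pass by TMM. Among the 8 genes of the 2-cell programme, Usp17lc was higher (1.38 ± 0.40, adjusted p = 0.00515) and the other 7 did not pass, and by TMM 3 were higher (Usp17lc, Zfp352 and Eif4e3).

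With FOXJ3 LOF, no member passed: 0 of 49 by edgeR, with 2 of 19517 features (0.0102%) called in all, and 0 by DESeq2. At an unadjusted p under 0.05 there were 5 members, where 5.71% of all features were. The median log2 fold changes were -0.0042 over core, -0.065 over regulatory and -0.067 over accessory genes, and -0.031 over all features. Among the 41 members with at least 1000 reads, fold changes lay between -0.55 (Psmg1) and 0.62 (Psmb10), with SE between 0.14 and 0.35. The smallest p was that of Psme1, with normalised counts of 3.76, 12.6 and 43.3 in LOF and 0, 7.24 and 17.9 in CONTROL (1.16 ± 0.45, adjusted p = 0.788), and with 1.75 in batch 1 and 0.38 in batch 2. Psmb9 had 8 reads over LOF and 40 over CONTROL embryos and medians of 0 in both groups (-2.14 ± 0.84, adjusted p = 0.798), with -3.11 in batch 1 and -0.75 in batch 2. Psmg1 had 6.44, 19.5 and 33.9 against 12.9, 31.8 and 51.4 (-0.55 ± 0.25, adjusted p = 0.86), with -0.61 and -0.50 in the batches. All 3 overlapped between groups, and 29 of the 49 members had opposite signs in the 2 batches. Without CONTROL embryos 2 and 3 of batch 1, the count stayed at 0 a check added after the data were seen, and the fold changes of Psme1, Psmb9 and Psmg1 were 0.88, -1.32 and -0.37. Without LOF embryo 7 of batch 2 as well, the count was also 0, and the values were 0.92, -1.25 and -0.40.

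**Figure D4:**
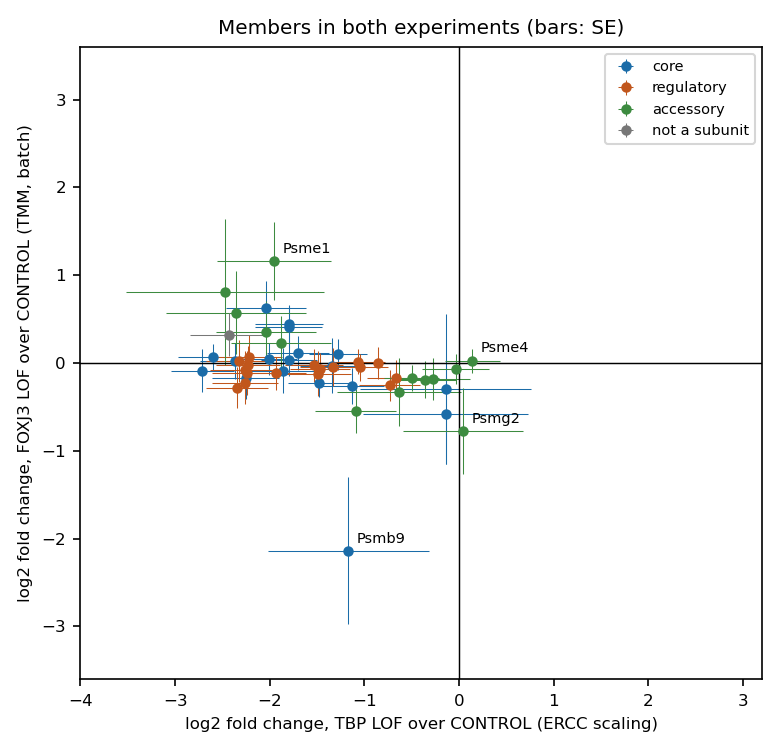
Log2 fold change with TBP LOF (x axis, spike-in scaling) and with FOXJ3 LOF (y axis, TMM with batch) for the 49 members, with SE as bars. Core and regulatory genes lie along the horizontal line at 0 for FOXJ3 LOF and between -2.71 and -0.66 for TBP LOF, apart from subunits read at low counts, of which Psmb9 is lowest for FOXJ3 LOF at -2.14.

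The effects of TBP LOF and FOXJ3 LOF, set against each other in 1 model over 47 embryos scaled by spike-ins, differed in 33 of 49 members, each with the TBP effect lower, where 28.0% of all 19657 features did. All 7 alpha genes, 6 of 7 beta genes, all 6 ATPases, 7 of 8 lid genes, 1 of 3 other base genes and 4 of 13 accessory genes were among them, with Psmb10 and Psmc3ip. Among well read genes, the TBP effect was called lower in 26 of 32 members and in 1988 of 3325 protein-coding genes. The median difference was -1.99 over all members, -0.89 over all features and -1.32 over these protein-coding genes. This model scales FOXJ3 embryos by spike-ins too, whose median share was 2.78% with LOF and 3.75% in CONTROL. The smallest p belonged to Psma1 (difference of log2 fold changes -2.82 ± 0.43, adjusted p = 8.14e-07), Psma6 (-2.87 ± 0.45, adjusted p = 1.25e-06) and Psmb2 (-2.23 ± 0.37, adjusted p = 2.85e-06). Psmb3 (-1.06, adjusted p = 0.0537), Psmd1 (-1.02, adjusted p = 0.0509) and Psmd7 (-0.75, adjusted p = 0.166) did not pass, and Psme4 differed by -0.04 ± 0.37. By TMM, 21 members had the lower effect with TBP LOF and Psme4 the higher. The share of all features called in that fit was not counted. Without the 2 FOXJ3 CONTROL embryos that stood apart, 34 members differed, and 34 also without the LOF embryo that did.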

How the data were processed

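Single embryos were sequenced with Smart-seq+5′, in which reads from transcript 5′ ends are told from internal fragments. The authors mapped the 5′ reads with STAR 2.7.11a to GRCm38 with the mCherry-Trim21 construct added, and counted genes, ERCC spike-ins and TE families with TEcount. The deposited values are estimated counts (expected counts), not normalised, all of them whole numbers. The treatment of reads with several locations, and of strand, is not stated in the methods or labels used here. Reads carry no molecular identifier, so PCR copies count as separate reads, and limits from counts cover counting error only. The labels say that TBP embryos came from several biological replicates but not which, and p-values measure the spread between embryos.

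Gene identifiers were matched to GENCODE M21, with symbols for 54809 of 54838. Embryos with at least 500000 reads, 1000 detected genes, at most 10% mitochondrial and 15% ERCC reads were kept. TBP_CONTROL embryo 7 (464300 reads) and FOXJ3_LOF embryo 7 of batch 1 (308682 reads) were left out. No libraries were identical. Features with at least 1 read in 25% of embryos entered a quasi-likelihood fit in edgeR 4.0.16 (R 4.3.3, two-sided), and p-values were adjusted after Benjamini and Hochberg over all features, with 0.05 as the threshold. The TBP libraries were scaled by median-of-ratios size factors from 42 ERCC transcripts, FOXJ3 embryos by TMM, with batch in the model. The study also used ERCC for TBP and batch for FOXJ3, but in DESeq2. TMM was chosen here. SE were derived from the F statistic. The difference between effects was fitted over both experiments with library set as a covariate. CPM are over genes and TE families, except for mCherry-Trim21, where they are over all counted reads. Alternatives were TMM or ERCC scaling, DESeq2 1.42.0, other filters, no quality control, mCherry-Trim21 level, the batches apart, a block on embryo number, and each embryo left out. Alternatives without the FOXJ3 embryos that stood apart (2 CONTROL, or these and 1 LOF) were added after the data were seen. The fit was also run on simulated counts in which as many genes were raised as lowered. That setting differs from a general fall, as with TBP LOF, so it does not check those results. Its outcome is not given here. Python 3.11.15, pandas 2.3.3 and matplotlib 3.10.9 were also used.

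The members and gene lists were chosen with earlier results of these data known. Full values were planned for the 2 members of each class with the smallest adjusted p, the best read member of each class that did not pass, inducible and tissue-specific subunits and Psmc3ip, and the 3 with the smallest p in the other comparisons, and for the 2 pathway genes per list with the smallest adjusted p. For Psmb9, Psmb11, Psma8 and Psmg2 only the medians of the groups are given with the fold change. Psmb8 is given as reads, and pathway genes as fold changes. Values of some pathway genes are not reported here. Other genes named were chosen after their values were seen. The count tables of single TE insertions were not used here.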

Additional observations from a re-analysis of the deposited data

Results flagged for a closer look

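The effects of TBP LOF and FOXJ3 LOF differed in 33 members by the test of the difference. The smallest p was that of Psma1 (-2.82 on the log2 scale), Psma6 (-2.87) and Psmb2 (-2.23), as given above. The TBP effect was also lower in 28.0% of all features. Among well read genes it was lower in 26 of 32 members and in 1988 of 3325 protein-coding genes.

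Over 58 groups of 9 embryos of the TBP experiment (members chosen there for full values, except Psmb8, and the sums by particle), 2 held an embryo far from the rest, beyond Dixon's critical share of 0.493 of the range, which chance gives in about 1 in 20 groups. Psma1 was highest in LOF embryo 6, with 126 normalised counts where the next embryo had 63.5, a gap of 0.531 of the range. Psmg3 was highest in LOF embryo 10, with 31.1 where the next had 14.7, a gap of 0.528 of the range. Without LOF embryo 6 or embryo 10 both genes stayed lower.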

How the results depend on the processing

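With spike-in scaling, the count of members called with TBP LOF (36) was between 34 and 37 for DESeq2, other filters, all embryos and mCherry-Trim21 as a covariate (with no filter, 35 lower and Psmb8 higher), and between 34 and 39 with 1 embryo left out. It was 21 by TMM and 21 by DESeq2 with its own size factors (20 lower and 1 higher each). Those scalings, TMM first, turned the sign of the accessory median (0.31 and 0.315) and of Psma8 (0.42 and 0.48), Psmb9 (0.0056 and 0.036), Psmb11 (0.45 and 0.50), Psmd1 (0.065 and 0.095), Psmd2 (0.18 and 0.20), Psmd5 (0.39 and 0.41), Psmd7 (0.18 and 0.19), Psmd9 (0.46 and 0.49) and Psmf1 (0.52 and 0.56), none past the threshold under those scalings. Psmg2 turned to -0.0080 with all embryos. With 1 embryo left out, Psma8 ranged from -0.77 to 0.23, Psmb11 from -0.87 to 0.53 and Psmg2 from -0.38 to 0.37. The accessory median was -0.97 without LOF embryo 7. Embryo numbers are shared between groups. Correlations between the deviations of same-numbered embryos ran from -0.092 to 0.165 in 7 TBP pairs and from -0.296 to 0.306 in 12 FOXJ3 pairs. They were over 0.1 in 2 of the TBP and 3 of the FOXJ3 pairs, so numbers were not taken as pairs. A fit with embryo number as a replicate block kept only numbers found in both groups, 14 TBP and 24 FOXJ3 embryos. It called 33 members with TBP LOF (Psmd1, Psme1 and Psmg4 were lost, and Psma8 and Psmg2 turned to 0.35 and -0.11) and 0 with FOXJ3 LOF. The block and the smaller set of embryos cannot be told apart in this fit. The FOXJ3 count was 0 under every alternative, 1 embryo left out included. The difference between effects gave 22 members by TMM and 35 by DESeq2, and shares of all features were not counted for these fits. Apart from the scalings named, the cause of each change was not tested. Depth limits the low genes: for Psma8, Psmb8, Psmb9 and Psmb11, with 15 to 157 reads over all embryos, no statement on change is made here. Psmb8, called higher with no filter, had 9 of its 11 TBP LOF reads in embryo 9.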
